A study of Homo sapiens with 2 samples.

Results

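The features examined here are transcripts that carry no gene symbol and are listed under the name of a genomic clone or of a sequence accession, such as RP11-849F2.7 or AC010761.8. They were taken by name alone, as the rows whose name begins with RP plus digits and a hyphen, with CTA-, CTB-, CTC-, CTD-, KB-, GS1- or LA16c-, or with AC, AL, AP or AF plus a sequence number and a version. This gave 1928 of 14914 listed features (12.9%), called clone-named below. The assay was RIP-seq, sequencing of RNA that comes down with an immunoprecipitated protein, in HUH7, an established line of human hepatocellular carcinoma. There were 2 libraries, 1 of RNA recovered with CSTF2 (IP) and 1 of input RNA (Input), and the labels name no treatment or genetic change of the cells. The series asks which RNAs of these cells bind CSTF2. There were no replicates and no mock precipitation was used here, so intervals below cover counting error only and each difference describes this pair of libraries.

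CSTF2 (CstF-64) is the part of the cleavage stimulation factor that touches RNA. It contacts GU-rich sequence downstream of the cleavage site when the 3′ end of a transcript is formed. Clone names were given by manual genome annotation to transcripts that had no approved symbol, mostly long noncoding RNAs, antisense transcripts, processed pseudogenes and readthrough models. The prefix names the clone library (RP for the Roswell Park libraries, CT for the Caltech libraries) or the sequence record of the clone, and the last number counts the transcripts annotated on it. Long noncoding RNAs are as a class shorter and less abundant than mRNAs, and antisense transcripts often share bases with exons of the gene on the opposite strand.

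Sharing of bases with other genes bears on how these features can be read, and it is shown here on 4 antisense members whose values are given below. The letters are transcript sequence from GENCODE v29 on GRCh38, written 5′ to 3′ on the strand of the clone-named transcript, and capitals mark bases that lie in an exon of the named gene on the opposite strand. AC010761.8 is shown at chr17:28722772-28722877 (minus strand) against RPL23A, AC092301.3 at chr19:45830164-45830283 (plus strand) against SYMPK, AC093110.3 at chr2:54664632-54664751 (minus strand) against SPTBN1, and AC005618.8 at chr5:141350543-141350662 (minus strand) against PCDHGB1.
AC010761.8: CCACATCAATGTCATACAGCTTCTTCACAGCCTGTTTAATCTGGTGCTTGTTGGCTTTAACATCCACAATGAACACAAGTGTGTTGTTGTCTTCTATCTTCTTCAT
AC092301.3: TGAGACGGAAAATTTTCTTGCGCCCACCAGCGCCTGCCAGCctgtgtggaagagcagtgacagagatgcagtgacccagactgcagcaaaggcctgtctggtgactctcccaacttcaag
AC093110.3: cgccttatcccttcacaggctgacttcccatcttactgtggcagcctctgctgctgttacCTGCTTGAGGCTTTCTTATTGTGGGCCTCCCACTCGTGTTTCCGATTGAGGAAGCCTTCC
AC005618.8: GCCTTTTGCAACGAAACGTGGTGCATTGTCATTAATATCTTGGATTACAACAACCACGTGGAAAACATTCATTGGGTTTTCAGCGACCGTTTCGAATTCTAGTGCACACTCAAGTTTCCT
These stretches were chosen to show the overlap, and within them 106 of 106 bases of AC010761.8, 41 of 120 of AC092301.3, 60 of 120 of AC093110.3 and 120 of 120 of AC005618.8 are shared. A fragment from such bases has the same letters, read from one strand or the other, whichever transcript it came from. Over the whole exons the shared part is 17.2% of AC010761.8, 5.37% of AC092301.3, 50.7% of AC093110.3 and 100% of AC005618.8. No label says that the libraries kept strand, so reads from shared bases cannot be told apart. Bases outside the exons of the named gene can still lie in its introns. AC010761.8 lies wholly within the span of RPL23A and AC092301.3 within that of SYMPK. Whether reads from such bases came from unspliced RNA of the named gene was not tested.

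The depth was 3220045 assigned reads for the IP and 9517885 for the Input, which is 2.96 times as many. CSTF2 mRNA itself was listed with 3429 IP and 145 Input reads, an RPKM (reads scaled to feature length and library depth) 69.9 times as high in the IP (95% counting interval 55.2 to 89.7). The 10 hepatocyte genes used to check the cell line were all listed, with a summed 929 RPKM in the IP and 903 in the Input. None of 3 blood and 2 endothelial markers was listed, and of 2 stromal markers COL3A1 alone was, at 0.542 RPKM in the IP and 0 in the Input.

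Clone-named features were short and thinly covered. Their median length was 1121 bp, against 4888 bp for the 12986 other features, and the range ran from 33 to 54079 bp. The median member had 8 IP and 14 Input reads, against 27 and 71 for other features. Of the 1928 members, 903 had under 20 reads over both libraries and 184 had 200 or more. Members made up 39.6% of the 492 features with 0 reads in the Input (195 members) and 18.8% of the 313 with 0 reads in the IP (59 members). A feature at 0 in 1 library was listed through the other, which took 4 reads for the IP or 10 for the Input. These shares are set in part by that rule, and nothing is read from their difference.

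In all, members held 56836 reads of the IP library, a share of 1.77% (95% Wilson interval 1.75 to 1.78%), and 172661 reads of the Input, a share of 1.81% (1.81 to 1.82%). The summed share was thus 0.973 times as high in the IP. The Wilson intervals count single reads, so they are narrower than read pairs would make them. Of this, the 5 members with the most reads held 0.274% of the IP reads and 0.435% of the Input reads. Leaving out reads of mitochondrially encoded features, the members' shares were 4.65% and 4.75%.

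**Figure D1:**
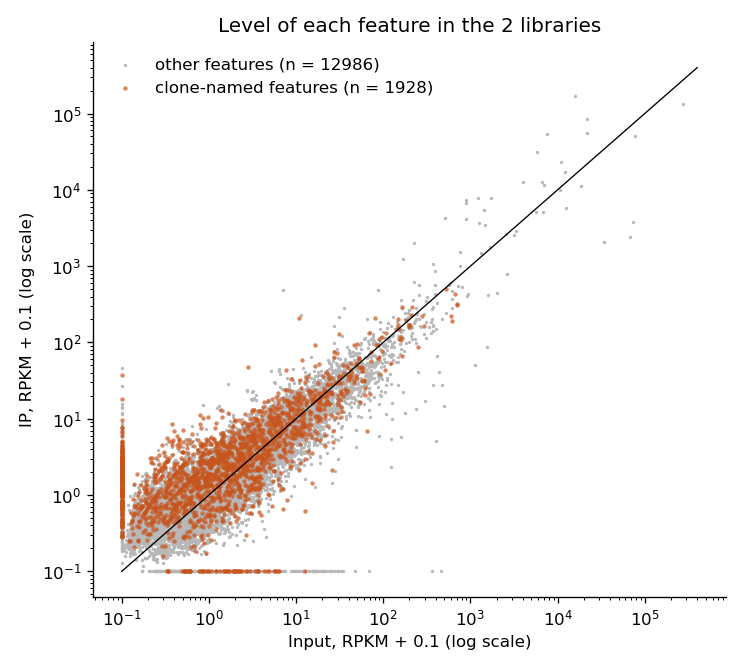
RPKM in the Input (x axis) and in the IP (y axis) of each listed feature, both plus 0.1 on log scales; orange points are the 1928 clone-named features, grey points the other 12986, and the line marks equal values. Members lie mainly in the lower left, and those at 0 reads in 1 library form the straight runs of points at the left and bottom edges.

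Levels were compared on log2((IP + 1)/(Input + 1)) of RPKM, where the pseudocount of 1 RPKM understates the change of low features, for features whose mean reached 1 RPKM. Of the 1928 members 1333 passed this filter (69.1%) and 595 did not. At least 2-fold higher in the IP were 340 members (25.5%), beside 9.88% of all 9880 features that passed. At least 2-fold lower were 109 members (8.18%), beside 6.83%. The median log2 ratio of the members was 0.36 and that of all features 0.17. Measured from that median, 282 members were higher and 150 lower, a setting at which the share over all features was not taken. Members were 34.8% of all features higher in the IP, 16.1% of those lower, and 13.5% of those that passed the filter.

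By counting interval the share of higher members was not above that of all features, but this cannot decide whether the excess is absent. An interval lies wholly past 2-fold only with enough reads. Members past the filter had medians of 12 IP and 25 Input reads, against 51 and 134 for other features. For 49 members (3.68%) the 95% counting interval of the RPKM ratio lay wholly above 2, beside 4% of all features. For 14 members (1.05%) it lay wholly below 0.5, beside 1.53%. Both shares were close to or under the background, and both include members that were listed through 1 library alone, as counted below. Set by read level, the interval lay wholly above 2 for 4.06% of members and 3.62% of other features at 20 to 49 reads. At 50 to under 200 reads these shares were 2.93% and 2.54%. Under 20 reads and at 200 or more the share of members was the smaller. With at least 20 reads over both libraries, 126 of 905 members were higher (13.9%, beside 6.89%) and 81 lower (8.95%, beside 6.5%), with a median of 0.12.

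The way a feature entered the table fixed part of these counts. Each listed feature had at least about 1 CPM (reads scaled to depth alone) in 1 library or the other, which took 4 reads for the IP or 10 for the Input. Of the members past the filter, 897 reached 1 CPM in both libraries, and 108 of them were higher (12.04%, beside 6.53% of all such features) and 48 lower (5.35%, beside 5.31%). The 320 members that reached it in the IP alone held 232 of the 340 higher members, and none of them was lower. The 116 that reached it in the Input alone held 61 of the 109 lower members, and none was higher. A feature that entered through 1 library had to be low in the other, so nothing is read from these last counts. By counting interval, 27 of the 49 higher members had entered through the IP alone and 3 of the 14 lower through the Input alone. With 1 CPM in both libraries the interval lay wholly above 2 for 22 of 897 members, beside 343 of 9091 features. It lay wholly below 0.5 for 11 of these members, beside 130 of these features. Among other features 190 entered through the IP alone and 162 through the Input alone, of 8547 past the filter.

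By read level, the shares of clone-named and of other features that were higher lay closest under 20 and at 200 or more reads, and farther apart in between. Under 20 reads, 214 of 428 members were higher (50%), beside 46.7% of 276 other features, and 28 were lower (6.54%, beside 18.5%). At 20 to 49 reads, 65 of 345 members were higher (18.8%, beside 10% of 580 others) and 33 lower (9.57%, beside 10.3%). At 50 to under 200 reads, 47 of 376 were higher (12.5%, beside 3.93% of 3616 others) and 27 lower (7.18%, beside 4.92%). At 200 or more, 14 of 184 were higher (7.61%, beside 7.51% of 4074 others) and 21 lower (11.4%, beside 6.80%). At the top level the share of higher members was next to that of other features. The lowest level held many features that entered through 1 library, so its shares are set in part by the entry rule. With 1 CPM in both libraries, a restriction added after seeing the data that itself bounds the ratio of features with few reads, 1 of 56 members under 20 reads was higher (1.79%) and none of 31 others. At 20 to 49 reads 48 of 287 members were then higher (16.7%, beside 7.66% of 496 others), and at 50 to under 200 reads 45 of 370 (12.2%, beside 3.95% of 3597).

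The gap at 50 to under 200 reads moved with the pseudocount. With 0.1 RPKM added in place of 1, 17.6% of members and 14.6% of other features at this level were higher, and with 5 RPKM 4.26% and 0.0553%. By counting interval the shares were 2.93% and 2.54%. The median length at this level was 1068.5 bp for members and 4380.5 bp for others, and its part in the gap was not tested. At 200 or more reads, by interval, 9 members were higher (4.89%, beside 5.33%) and 10 lower (5.43%, beside 2.63%).

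**Figure D2:**
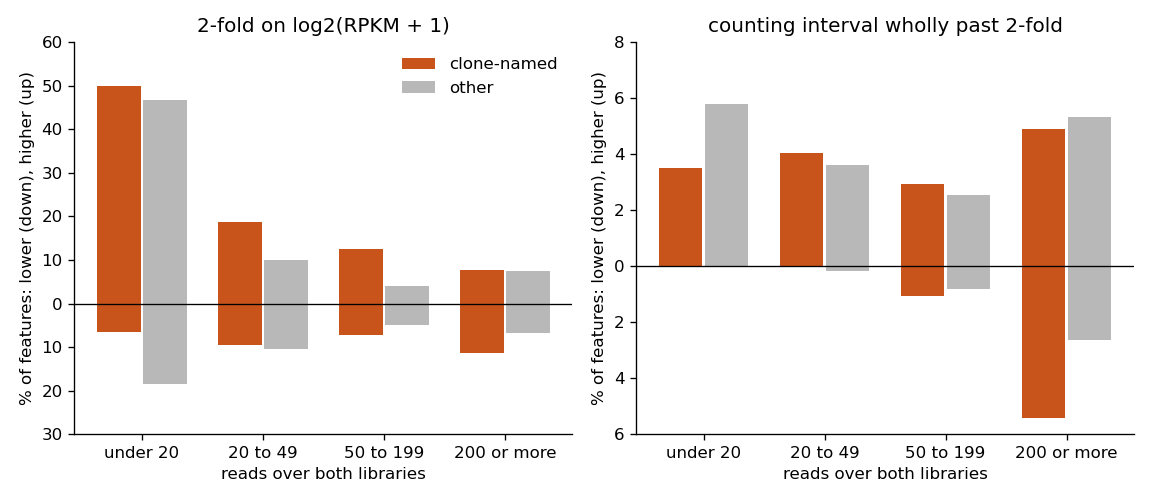
Share of features, in percent, at least 2-fold higher in the IP (bars up) and lower (bars down) by reads summed over both libraries, for clone-named (orange) and other features (grey); the left panel uses log2(RPKM + 1) values and the right panel counts features whose 95% counting interval lies wholly past 2-fold. In the left panel the bars of higher members stand at 50% under 20 reads, a level shaped by how features entered the table, and at 7.61% at 200 or more, while in the right panel it stays between 2.93% and 4.89%.

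The highest log2 ratio among members with at least 20 reads was that of CTB-174O21.2 (562 bp), with 379 IP and 57 Input reads. Its level was 209 RPKM in the IP and 10.7 in the Input, 19.7 times as high (13.2 to 30.3). No other member among the 10 with the highest ratios had as many reads. RP11-561I11.3 had 21 IP and 2 Input reads, a ratio of 31.0 with the wide interval 4.47 to 1341. CTD-2600O9.2 had 28 and 8 reads, 10.3 times as high (3.25 to 43.2). RP11-400F19.18 had 25 IP reads and no Input read, which made it at least 12.3-fold higher when that 0 is set to a floor of 3 read pairs, while its 95% counting interval begins at 8.61. These ratios are large, but each rests on 36 reads or fewer over both libraries.

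Also among the 10 were CTD-2012K14.4, a feature of 207 bp with 62 IP and 32 Input reads (5.73 times as high, 3.04 to 11.2), RP11-561I11.4 with 18 and 7 reads, and LA16c-366D1.3 with 16 and 6. The other 3 were antisense members with a position in the annotation, AC093110.3, AC092301.3 and AC005618.8, described with the genes they overlap. In 9 of these 10 members the counting interval lay wholly above 2. The exception was LA16c-366D1.3, with an interval of 1.89 to 46.1. Only CTB-174O21.2, CTD-2012K14.4 and AC093110.3 had the 10 Input reads that make 1 CPM. The others entered the table through the IP alone, so nothing is read from how far their intervals lie above 2.

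At the other end, RP11-217B1.2 (1109 bp) had no read in the IP and 134 in the Input. It was at least 7.56-fold lower with the 0 set to the floor of 3 read pairs, and its counting interval begins at 5.98-fold lower. AC084082.3, annotated as a long intergenic RNA on chromosome 8, had 2 IP and 144 Input reads, 24.4-fold lower with an interval of 4.23 to 975. CTD-2651B20.6 (308 bp) had 2 and 76 reads, 12.9-fold lower (2.17 to 521). For these 3 the interval lay wholly below a ratio of 0.5, and for the other 7 of the 10 lowest it did not. All of the 10 had fewer than the 4 IP reads that make 1 CPM, so they entered through the Input alone. Nothing is therefore read from how low they lie.

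Those 7 had few reads. RP11-732A19.9 had 2 IP and 66 Input reads, a further RP11 feature of 637 bp had 0 and 35, CTC-512J12.6 had 0 and 30, RP4-706A16.3 had 0 and 25, and RP11-685M7.5 had 0 and 23. AC016739.2, a processed pseudogene at chr2:176200908-176201252 (minus strand, 1 exon), had 0 and 20. AC074033.1 is only 45 bp long and had 1 and 28 reads, with an interval of the ratio from 9.84e-05 to 1.15. With the Input 2.96 times as deep, a count of 0 or 1 in the IP limits these ratios little.

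Among the members with the most reads, RP11-849F2.7 (3087 bp) led both libraries, with 3117 IP and 20799 Input reads, or 314 and 708 RPKM, 2.26-fold lower in the IP (2.14 to 2.38). Its name is not in GENCODE v29. In that annotation 2 genes named by accession have exactly its exon length, AL445437.1 on chromosome 1 and AC135178.2 on chromosome 17, and length alone does not place it. AC135178.2, a protein-coding model, shares 2727 exonic bases with KRBA2, which had 16 IP and 20 Input reads. It shares 360 with RPL26, a ribosomal protein gene of the large subunit, which had 3207 and 21577 reads. These values are given side by side and the position was not tested.

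AC010761.8 was at a like level. It had 936 IP and 6029 Input reads, 323 and 705 RPKM, 2.18-fold lower (1.98 to 2.41). CTD-2231E14.2 (3103 bp) had 2935 and 6275 reads and was 1.38 times as high in the IP (1.30 to 1.47), and RP11-386G11.10 had 1203 and 3260 reads, 1.09 times as high (0.992 to 1.20). Neither reached 2-fold. RP11-152F13.10 (880 bp) had 621 and 5013 reads, 2.73-fold lower (2.43 to 3.08), and RP11-290D2.6 (588 bp) had 361 and 3424, 3.21-fold lower (2.75 to 3.76). CTD-3128G10.7 (1357 bp), among the 5 with the most reads in the IP but not in the Input, had 907 and 1046 reads and was 2.56 times as high (2.26 to 2.91). Of the 5 members with the most Input reads, 4 were therefore more than 2-fold lower in the IP, counting AC010761.8, whose interval reaches 1.98. Ranking by Input reads favours members that are lower in the IP, so nothing is read from this count. At 200 or more reads 11.4% of members and 6.80% of other features were lower.

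With 200 or more reads, 19 members had a counting interval wholly past 2-fold. This set was chosen after the values were seen. The 9 higher members were CTB-174O21.2, AC093110.3, AP000769.1, AC027682.1, RP11-849H4.4, AC127070.1, RP11-437B10.1, RP11-2C24.9 and CTD-3128G10.7. AP000769.1 (1589 bp) had 657 IP and 474 Input reads, 4.10 times as high (3.46 to 4.86). AC127070.1 (3405 bp) had 356 reads in each library, which at these depths made its RPKM 2.96 times as high in the IP (2.39 to 3.66). RP11-2C24.9, the longest of them at 11692 bp, had 462 and 483 reads, 2.83 times as high (2.35 to 3.4). Of these 9 higher members 5 were 3405 bp or longer. That cut was taken from the same lengths, and the lower members below include RP11-486O12.2 at 8279 bp. Nothing is therefore read from length here.

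The 10 lower members with 200 or more reads were RP11-613M10.8, AC024592.12, RP11-359P5.1, RP11-290D2.6, CTD-3214H19.4, RP11-1035H13.3, RP11-152F13.10, RP11-486O12.2, RP11-613M10.9 and RP11-849F2.7. RP11-613M10.8 (3217 bp) had 45 IP and 647 Input reads, 4.86-fold lower (3.17 to 7.83). RP11-1035H13.3 (764 bp) had 214 and 1803, 2.85-fold lower (2.33 to 3.52). AC024592.12, at chr19:5866171-5903787 (minus strand), is annotated as protein-coding and shares 467 exonic bases with NDUFA11, which encodes a subunit of respiratory complex I. It had 18 and 230 reads, and NDUFA11 had 20 and 236, so that the 2 features had nearly the same reads.

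**Figure D3:**
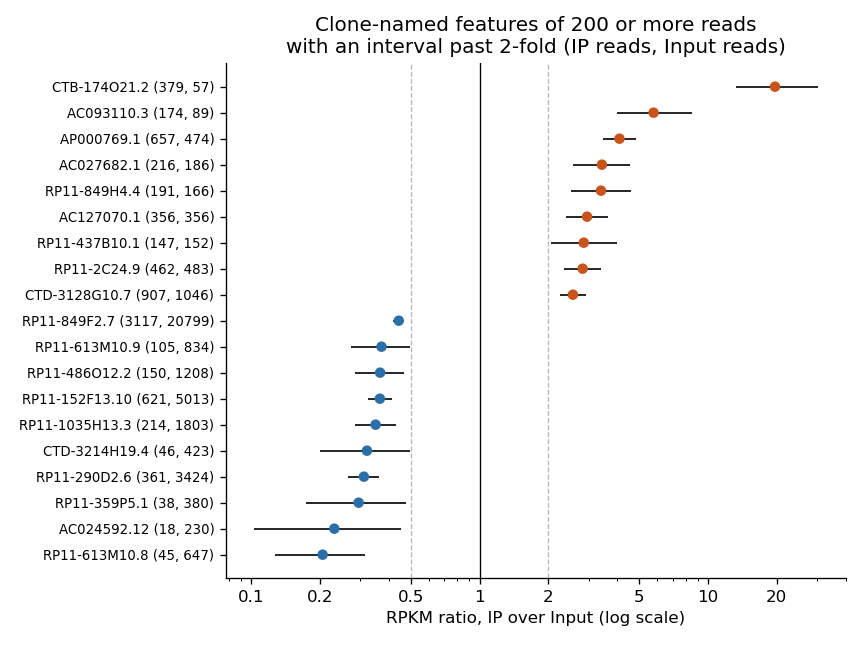
RPKM ratio of IP over Input (log axis) of the 19 clone-named features with 200 or more reads and a counting interval wholly past 2-fold; points are ratios, bars are 95% counting intervals, brackets give IP reads and Input reads, and dashed lines mark 2-fold. The 9 higher members (orange) run from 2.56 for CTD-3128G10.7 to 19.7 for CTB-174O21.2, and the 10 lower (blue) from 0.206 for RP11-613M10.8 to 0.443 for RP11-849F2.7.

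By prefix, each count stands beside 9.88% of all features higher and 6.83% lower. RP names, 868 of those past the filter, held 211 higher (24.3%) and 67 lower (7.72%) members, with a median log2 ratio of 0.32. CTD held 38 higher and 13 lower of 126 (median 0.41), and AC held 55 higher and 20 lower of 207 (median 0.43). CTB held 11 higher and 4 lower of 30 (0.60), CTC 9 and 2 of 35 (0.56), AP 4 and 2 of 21 (0.28), and AL 4 and 0 of 19 (0.54). With 20 or more reads the medians were 0.09 for RP, 0.11 for CTD, 0.24 for AC, 0.31 for CTB, 0.26 for CTC, 0.15 for AP and 0.40 for AL, beside 0.15 for all features. The prefix classes therefore lay nearer to all features once low reads were left out, AL with its 16 members least so. Prefixes were not tested against each other.

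Within RP names, RP11 held 715 members past the filter, 175 of them higher and 60 lower, with a median of 0.28. The 15 RP13 members had the highest median, 1.18, with 9 higher and none lower, with medians of 10 IP and 12 Input reads. By interval, 1 of those 15 was past 2-fold. By the same measure 4% of all features were higher and 1.53% lower, and the members held 49 higher and 14 lower. Of 868 RP members 28 were higher and 9 lower, of 207 AC members 11 and 2, and of 126 CTD members 5 and 3. Of 30 CTB members 4 were higher and of 21 AP members 1, with none lower.

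The 5 small prefix classes held 27 members past the filter. CTA held 1 higher and none lower of 4, KB 1 and 1 of 6, GS1 2 and 0 of 7, LA16c 3 and 0 of 8, and AF 1 and 0 of 2. None had a counting interval past 2-fold. Their best covered members were KB-1043D8.6, with 66 IP and 450 Input reads (2.31-fold lower, 1.60 to 3.43), LA16c-358B7.3 at 3.67 and 4.66 RPKM, CTA-941F9.10 with 44 and 82 reads, GS1-259H13.13 with 32 and 93, and AF196970.3 with 13 and 28. CTA-941F9.10 is 23112 bp long, so that its 126 reads came to 0.591 and 0.373 RPKM, under the filter. Of the best covered members of the other prefixes, CTC-260F20.3 had 106 and 535 reads (1.71-fold lower, 1.27 to 2.34), AL136419.6 had 129 and 526 (1.38-fold lower, 1.05 to 1.84) and CTB-50L17.10 had 422 and 518 (2.41 times as high, 2.00 to 2.90).

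A position and an annotated class could be given to 233 members, those whose accession carries in GENCODE v29 a gene of exactly the recovered exon length. Of 347 names by accession 232 were placed and of 1581 names by clone 1 was, so the classes describe accession names. By class, 114 were antisense, 33 protein-coding, 31 pseudogenes, 21 long intergenic, 6 sense intronic or overlapping, and 28 of other kinds. Of these, 163 passed the filter, with 40 higher (24.5%), 13 lower (7.98%) and a median of 0.43. The 1170 unplaced members past the filter held 300 higher (25.6%) and 96 lower (8.21%), with a median of 0.35. Placed and unplaced members thus gave nearly the same shares.

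Among antisense members past the filter, 17 of 80 were higher (21.2%) and 6 lower (7.5%), where all features gave 9.88% and 6.83%. Among pseudogenes the counts were 8 and 2 of 19, among long intergenic RNAs 7 and 2 of 13, and among protein-coding models 2 and 2 of 26. With 20 or more reads, where all features gave 6.89% and 6.5%, they were 11 and 3 of 58 antisense members, 2 and 2 of 10 pseudogenes, 1 and 2 of 5 long intergenic RNAs, and 2 and 2 of 24 protein-coding models. The higher pseudogenes and long intergenic RNAs were therefore mostly features of under 20 reads. By interval, where all features gave 4% higher and 1.53% lower, 3 of 13 long intergenic members were higher, AC005304.1 with 9 IP and 0 Input reads, AC021224.1 with 14 and 2, and AC004951.6 with 18 and 2. AC012066.1, a processed pseudogene at chr2:152389937-152390630 (plus strand), had 15 and 2. The best covered pseudogene, AC007969.5 at chr2:171517270-171517716 (minus strand), had 34 and 159 reads, with a ratio of 0.632 (0.351 to 1.08). The 4 members higher by interval were named after their values were seen. Each had fewer than the 10 Input reads that make 1 CPM and so entered the table through the IP alone. Nothing is therefore read from them about their classes.

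Noncoding RNAs with approved symbols were set beside them. Of 85 LINC-named features 24 passed the filter, with 4 higher and 1 lower and a median of 0.23. Of 331 features named as antisense (AS) 160 passed, with 30 higher (18.8%), 19 lower (11.9%) and a median of 0.32, beside 9.88% and 6.83% of all features. By interval, 1 LINC-named and 4 AS-named features were higher and none was lower, beside 4% and 1.53%. At 20 to 49 reads 10 of 47 AS-named features were higher (21.3%), beside 18.8% of members, and at 50 to under 200 reads 5 of 58 (8.62%), beside 12.5%. At 200 or more reads none of 22 AS-named features was higher and 5 were lower (22.7%), beside 7.61% and 11.4% of members. The best covered of them were LINC00261 with 216 and 584 reads (1.09 times as high, 0.868 to 1.37), LINC01419 with 102 and 385 (ratio 0.783, 0.563 to 1.07), NUCB1-AS1 with 254 and 468 (1.60 times as high, 1.28 to 2.00) and LRRC75A-AS1 with 141 and 895 (2.15-fold lower, 1.67 to 2.80). No test of the difference between these name classes was made.

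Overlap with other genes was the rule among placed members. Of 233, 186 overlapped a listed protein-coding gene and 166 shared exonic bases with one, while 60 shared none with any listed feature. The reads of those 60 came to 0.0231% of the IP (0.0215 to 0.0248%) and 0.0178% of the Input (0.0170 to 0.0187%), out of 0.167% and 0.173% for all placed members.

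AC010761.8 lies at chr17:28721487-28722877 on the minus strand, with 2 exons of which 155 bases are shared with RPL23A, a ribosomal protein gene of the large subunit on the plus strand. RPL23A had 1857 IP and 12734 Input reads. Its log2 ratio was -1.21 and that of AC010761.8 was -1.12. Both were lower in the IP by about the same amount.

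AC093110.3 (chr2:54661011-54680045, minus strand, 5 exons) shares 627 bases, 50.7% of its exons, with SPTBN1, which encodes a spectrin of non-erythroid cells. It had 174 IP and 89 Input reads, 5.78 times as high (3.98 to 8.49). SPTBN1 had 9914 and 4834 reads and was 6.06 times as high (5.77 to 6.37). AC092301.3 (chr19:45830164-45831108, plus strand, 2 exons) shares 41 bases with SYMPK, the gene of symplekin, a scaffold of the cleavage and polyadenylation machinery. It had 21 and 5 reads, 12.4 times as high (2.99 to 85.5), and SYMPK had 447 and 127, 10.4 times as high (7.84 to 14.0). In both pairs the interval of the gene's ratio lay within that of the antisense member.

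AC005618.8 (chr5:141350109-141350662, minus strand, 1 exon) lies wholly within the PCDHGB1 exon of the gamma protocadherin cluster, a family of neuronal adhesion proteins. It had 18 IP and 4 Input reads, 13.3 times as high (2.75 to 127). PCDHGB1 had 75 and 97 reads, 2.29 times as high (1.45 to 3.57). Here the member's point value was the larger, and the intervals overlapped, but the member had entered the table through the IP alone.

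The best covered members of 3 other classes lay within 2-fold on the log2(RPKM + 1) scale, as did the genes they overlap. AC009120.6 (chr16:74305127-74335346, minus strand) shares 842 bases with PSMD7, a proteasome subunit gene, and had 385 IP and 1258 Input reads, beside 567 and 1889 for PSMD7. Their log2 ratios were -0.14 and -0.17. AC002985.3, a protein-coding model at chr19:18907013-18934397 (minus strand), takes 264 of its 685 exonic bases from COPE, a coatomer subunit gene, and 421 from HOMER3, which encodes a scaffold protein. It had 206 and 573 reads and a log2 ratio of 0.09, beside 0.02 for COPE and 0.65 for HOMER3. AP000688.14 (chr21:36069642-36126640, minus strand) shares 464 bases with CBR1, a carbonyl reductase gene, and had 24 and 34 reads, beside 28 and 62. Without a pseudocount its RPKM was 2.09 times as high in the IP (0.909 to 4.64).

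Over pairs of a placed member and a listed protein-coding gene it overlaps, both with a mean of 1 RPKM or more and the member with 20 or more reads, there were 121 pairs of 91 members and 114 genes. The log2 ratios of member and gene correlated with r 0.62 (Pearson) and rho 0.62 (Spearman). For the 75 pairs with shared exonic bases on opposite strands r was 0.77 and rho 0.73. For the 35 pairs with shared exonic bases on the same strand r was 0.45 and rho 0.47. For the 11 pairs (9 members) with no shared exonic base r was 0.41 and rho 0.57, so the order of these groups differed by measure. The member was the higher of the pair in 71 of 121, with a median difference of 0.07. Points share the libraries, the depths and, where exons overlap, bases, and several genes recur, so these are descriptions.

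**Figure D4:**
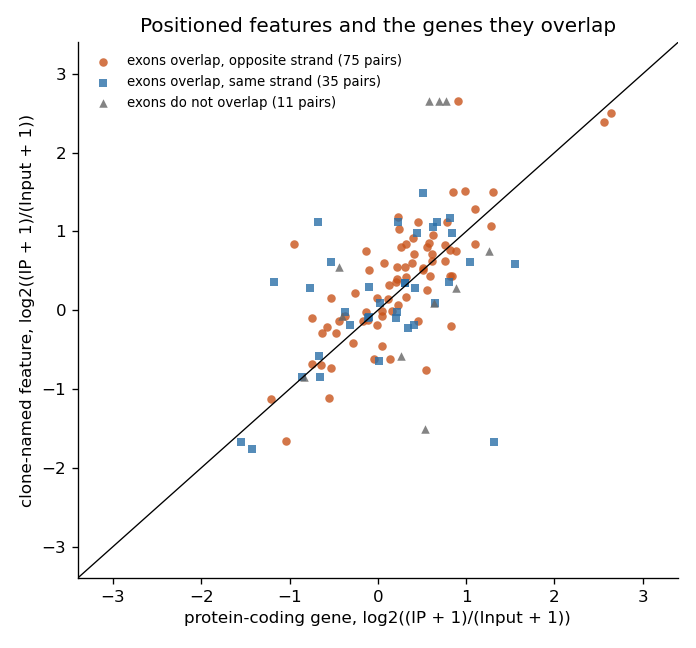
Log2((IP + 1)/(Input + 1)) of RPKM for 121 pairs of a protein-coding gene (x axis) and the placed clone-named feature that overlaps it (y axis), by whether exons are shared on opposite strands (75 pairs, circles), on the same strand (35, squares) or not at all (11, triangles); the line marks equal values. Circles run along the line, with AC093110.3 and AC092301.3 at upper right and AC010761.8 at lower left, and 3 triangles and 1 circle at the top are AC005618.8 against 4 protocadherin genes.

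Members annotated on the same clone were neighbours on the genome, and their ratios could be compared without coordinates. With 20 or more reads, 905 members fell on 787 clones, and 95 clones carried several (213 members, at most 5 on a clone). In the 148 pairs of such members, both were higher in 12, both lower in 2, and 1 higher with 1 lower in 2. In 42 pairs 1 member was past 2-fold, and in 90 neither was. The log2 ratios within pairs correlated with rho 0.36 (Spearman) and r 0.38 (Pearson). The SD of members around the mean of their clone was 0.68, against 0.90 over all 905. In 2 pairs both members had the same reads in both libraries. Whether members of a clone share bases was not tested.

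RP11-561I11 had the highest mean, with RP11-561I11.3 and RP11-561I11.4 at log2 ratios of 2.90 and 2.32. On CTD-2012K14, CTD-2012K14.4 and CTD-2012K14.3 were at 2.45 and 2.26, the latter with 64 IP and 37 Input reads, while CTD-2012K14.2, with 14 and 24 reads, was at 0.68. At the low end, RP11-613M10.8 and RP11-613M10.9 were at -2.05 and -1.36, the latter with 105 and 834 reads, and CTD-3214H19.4 and CTD-3214H19.16 were at -1.55 and -1.41. These clones were picked by the mean of their members, so that their members lie on the same side follows from the choice. On other clones neighbours lay on opposite sides. CTD-2192J16.22 had 35 IP and 40 Input reads and a log2 ratio of 1.22, while CTD-2192J16.24 had 13 and 149 and a ratio of -1.81. RP11-152F13.8 was at 1.57 and RP11-152F13.10 at -1.45. Clones named here outside the highest and lowest members were chosen after their values were seen.

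**Figure D5:**
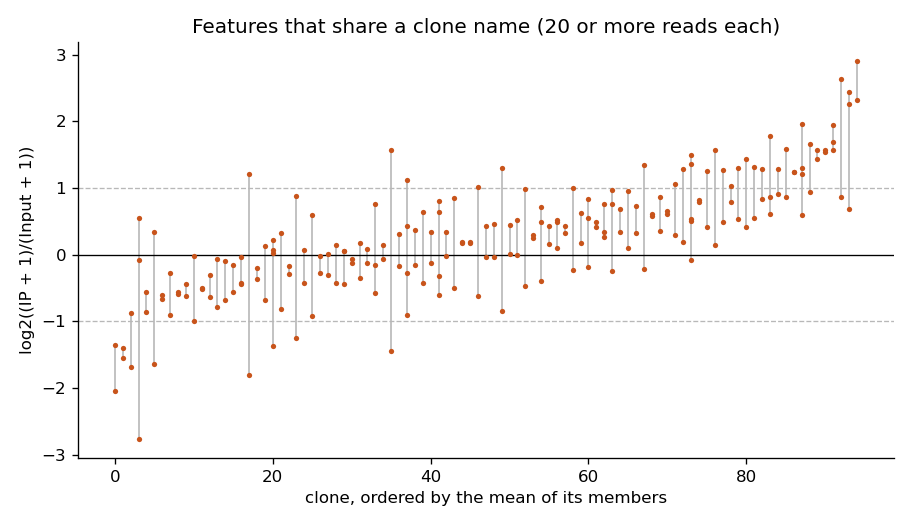
Log2((IP + 1)/(Input + 1)) of RPKM of clone-named features with 20 or more reads that share a clone, 1 grey line for each of 95 clones, ordered by the mean of its members (points); dashed lines mark 2-fold. The lines at the left end are RP11-613M10 and CTD-3214H19 and at the right end CTD-2012K14 and RP11-561I11, and in 90 of the 148 pairs on a clone both members lie within 2-fold.

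The poly(A) signals AATAAA and ATTAAA, which lie upstream of the cleavage site, were looked for on the transcript strand in the last 50 bases of annotated transcripts. Of 229 placed members with a transcript sequence, 64 held 1 of them (27.9%), against 71.1% of 11629 annotated listed features and 51.6% of 364 other long intergenic or antisense features. By class the share was 32.5% of 114 antisense members, 23.8% of 21 long intergenic, 13.8% of 29 protein-coding and 9.68% of 31 pseudogenes. It was 11 of 40 in members higher in the IP, 26 of 108 within 2-fold and 3 of 13 in lower members. Over all annotated features it was 56.1% of 574 higher, 74.2% of 6625 within 2-fold and 50.4% of 510 lower. Placed members therefore held the letters less often than listed features in general in this window, and the members' shares by direction lay between 23.1% and 27.5%. TGTGT, a GU-rich run, was present anywhere in the transcript in 54.1% of placed members and 85.1% of annotated listed features, whose median transcript lengths were 686 and 2847 bases. Annotated ends of such transcripts need not be true ends, and no match says only that the letters are not in the window.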

How the data were processed

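One RIP-seq library of HUH7 RNA recovered with CSTF2 and 1 of input RNA were compared. Per the labels' protocols, RNA was fragmented and copied from random hexamers. FastQC 0.12.0 and hg38 are named in the submitters' processing notes. The name of an aligner, counter or annotation is not given in the sources used here. The values the authors deposited are, per the file headers, RPKM for each library and a log2 fold change between them for each feature, so a count model was not run.

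Whole reads were recovered by solving the RPKM ratio with the deposited log2 fold change, which follows the logarithm of reads plus a small constant (prior of 0.125 reads scaled to depth, 0.0632 for the IP and 0.187 for the Input), with a tolerance of 0.01 reads. This gave 14913 of 14914 features (the exception is PGK1) and each of the 1928 members. The refitted log2 values differed from the deposited ones by at most 2.36e-08. Recovered exon lengths equalled those of GENCODE v29 for 90.9% of 12545 other features matched by symbol.

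Low read numbers were mostly even (74.9% of features with 1 to 19 reads in the IP), so exact conditional Clopper-Pearson 95% intervals use read pairs, as do floors (3 pairs, or 6 reads, per library). Wilson intervals of read shares count single reads instead. Intervals cover counting error only, since PCR reads that carry no molecular identifiers do not count independent molecules.

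Members and lists were chosen with earlier results of these data known. Named were the 10 highest and 10 lowest members with at least 20 reads and a mean of 1 RPKM, the 5 with most reads in each library, the best covered of each prefix and class, protein-coding genes these overlap, and 2 LINC-named and 2 AS-named features with most reads. Alternatives varied the pseudocount, the filter, the centring, the fold and the set of members. Scripts were tested on simulated data (Python 3.11.15, numpy 2.4.6, pandas 2.3.3, scipy 1.17.1).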

Additional observations from a re-analysis of the deposited data

How the results depend on the processing

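The main values were 340 members higher, 109 lower and a median log2 ratio of 0.36. With 0.1 RPKM added they were 468 (35.1%), 165 (12.4%) and 0.48, where 18.5% of all features were higher and 10.4% lower. With 5 RPKM added they were 57 (4.28%), 41 (3.08%) and 0.18, where 1.88% of all features were higher and 2.99% lower. Without a filter the members' values were 410, 123 and 0.38, and with a mean of at least 5 RPKM 79, 49 and 0.095. With 20 reads they were 126, 81 and 0.12, and centred on the median of all features 282, 150 and 0.19. The 34 placed members past the filter that share no exonic base gave 11, 5 and 0.74. At 1.5-fold there were 556 higher and 226 lower, at 4-fold 66 and 21, and by counting interval 49 and 14. With 1 CPM in both libraries, an alternative chosen after seeing the data, the values were 108, 48 and 0.16. Members' reads, 1.77% of the IP and 1.81% of the Input, were 4.65% and 4.75% without mitochondrially encoded features and 0.0231% and 0.0178% for placed members without exon overlap, where the IP share was the larger. In each of these settings more members were higher than lower and the median was positive. Among all features more were also higher with 0.1 RPKM added, while with 5 RPKM added more were lower. Shares over all features were not taken without a filter, with a mean of at least 5 RPKM, centred, at 1.5-fold or at 4-fold. Those counts of members have no background beside them. With another pseudocount the sign of the median could not change, since the sign of each ratio is kept. The fewer members tested account for part of the lower counts by construction; otherwise the cause was not tested.

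Of the 40 named members none past 2-fold changed direction, and none could have. An equal pseudocount in both libraries keeps the sign of a ratio, and centring moved each value by only 0.17. Centring turned the sign of 3 near 0, GS1-259H13.13 (0.02 to -0.15), AC002985.3 (0.09 to -0.09) and RP11-386G11.10 (0.12 to -0.05). With 5 RPKM added 8 lay outside the counting interval of their ratio without a pseudocount, centred 5 did, and with 0.1 RPKM added none did. RP11-400F19.18, counted with 5 RPKM added and when centred, already lay below its interval at the main setting.

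Depth limits many members: 903 of 1928 had under 20 reads, and a count of 0 in the IP allows up to 6 reads (3 pairs). No paired analysis was possible because each group has 1 library. The planned search for TGTGT downstream of annotated ends was not run, since it needs the genome sequence, not used here.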

Other observations

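Clone-named features can also be set out by length. With 20 or more reads, 23 of 144 members under 500 bp were higher in the IP (16.0%) and 21 lower (14.6%), and of 183 other features of that length 21 were higher (11.5%) and 89 lower (48.6%). From 500 to under 1000 bp, 43 of 309 members were higher (13.9%) and 37 lower (11.97%), beside 6.18% and 28.1% of 178 other features. From 1000 to under 3000 bp, 12.5% of 319 members were higher and 6.27% lower, beside 3.78% and 12.7% of 1876 others. At 3000 bp or more, 15.0% of 133 members were higher and 2.26% lower, beside 6.68% and 2.27% of 6033 others. Median log2 ratios of members in these classes were 0.06, 0.09, 0.10 and 0.34, and those of other features were -0.88, -0.43, -0.20 and 0.24. Short other features had a median length of 191 bp, against 410 bp for short members, and more Input reads (104 against 34.5), so the shortest classes are not matched.

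Of the 1928 member names, 115 are also names in GENCODE v29, and 79 of them belong there to a gene of another length. Of these 79, 37 were placed at a gene of the same accession under another name, and the other 42, AP000769.1 among them, were given no position.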
